A study of Mus musculus with 9 samples.

Results

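Transcripts of 4 genes of fatty acid oxidation, peroxisomes and their control were followed in 9 mouse aortas: Cpt1a, Acaa2, Pex11a and Ppara. Cpt1a and Acaa2 were taken by their array probes, A_51_P427674 and A_51_P125260, and Pex11a and Ppara as the probes whose design entry names a RefSeq transcript of the gene, A_51_P456957 and A_51_P348334. Gene names were looked up only for the 50 probes printed as 10 spots, of 60823 different probes in all. The 4 genes are among the 49 that could be named in this way. All animals were male C57BL/6J mice, 3 in each group, with 1 one-colour Cy3 array per aorta. The vehicle group carries no diet in its label. The DIO group (diet-induced obesity) ate a high-fat diet for 4 months and received no sitagliptin. The DIO+sitagliptin group was high-fat diet-fed, for a length its label does not give, and took 3 mg/kg of sitagliptin by mouth each day. Sitagliptin inhibits DPP-4, the peptidase that cleaves incretin hormones, and the series title asks about endothelial function and coding and long non-coding RNAs of the aorta in obese mice.

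Long-chain fatty acids enter mitochondria as carnitine esters and are shortened there by repeated rounds of beta-oxidation. Very long chains are shortened first in peroxisomes, organelles that multiply by growth and division. In many tissues both routes are under the control of PPAR alpha, a lipid-activated nuclear receptor that binds DNA as a partner of the retinoid X receptors and that is also made by endothelial and smooth muscle cells of the vessel wall. Cpt1a encodes the liver-type carnitine palmitoyltransferase of the outer mitochondrial membrane, the entry gate of the pathway. Acaa2 encodes a mitochondrial 3-ketoacyl-CoA thiolase, the type of enzyme that carries out the last cleavage of a round. Pex11a encodes a peroxisomal membrane protein that takes part in peroxisome proliferation, and Ppara encodes the receptor itself.

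The array files hold 10 spots of each of these probes, scattered over the slide, so that each reading is a mean with its own spot-to-spot error. Values are spot intensities in the arbitrary units of the scanner, background-subtracted. A reading was judged against a pair of references on the same array: the brightest of 15 probes named NEGATIVE in the design (25.1 to 48.6 units by array), and the median of the 308 control features of the negative type, which marks the dark end of the scale (1.19 to 2.81 units). Across the arrays 61.7% to 82.9% of spots were marked well above background. The same mark was carried by 22.2% to 71.1% of the spots of the NEGATIVE probes, so by itself it does not show transcript signal. Vehicle 3 and DIO+sitagliptin 3 were scanned on 20 November 2020, the other 7 on 12 November 2020, and the dark end read 1.19 and 1.25 units on that pair against 1.90 units or more on the others. Since no DIO array belongs to the second date, results are also given for the first date alone, 2 vehicle, 3 DIO and 2 DIO+sitagliptin aortas. In whole-tissue RNA, fewer cells of a type and less RNA per cell cannot be told apart.

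No difference between the groups passed the test for Cpt1a, Acaa2 or Pex11a, and Ppara did not enter the test. The 4 genes fell into 2 pairs by detection: Pex11a and Acaa2 were bright, whereas Cpt1a and Ppara were dim, Ppara lying near the dark end of the scale in most aortas. Pex11a exceeded the brightest NEGATIVE probe on 9 of 9 arrays, by 3.53 to 13.6 times, and Acaa2 on 8 of 9. Cpt1a reached 0.160 to 0.456 of it and Ppara 0.0657 to 0.190, so neither exceeded it on any array. Of the 90 spots of each gene, 90 were marked well above background for Pex11a, 90 for Acaa2, 30 for Cpt1a and 10 for Ppara. A probe entered the test when at least 0.5 of its spots were so marked in at least 3 arrays. This kept 49360 probes and 3 of the 4 genes, Ppara having met it on 2 arrays only. Probes differ in how brightly they bind, so brightness was not compared between genes as a measure of transcript number.

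**Figure D1:**
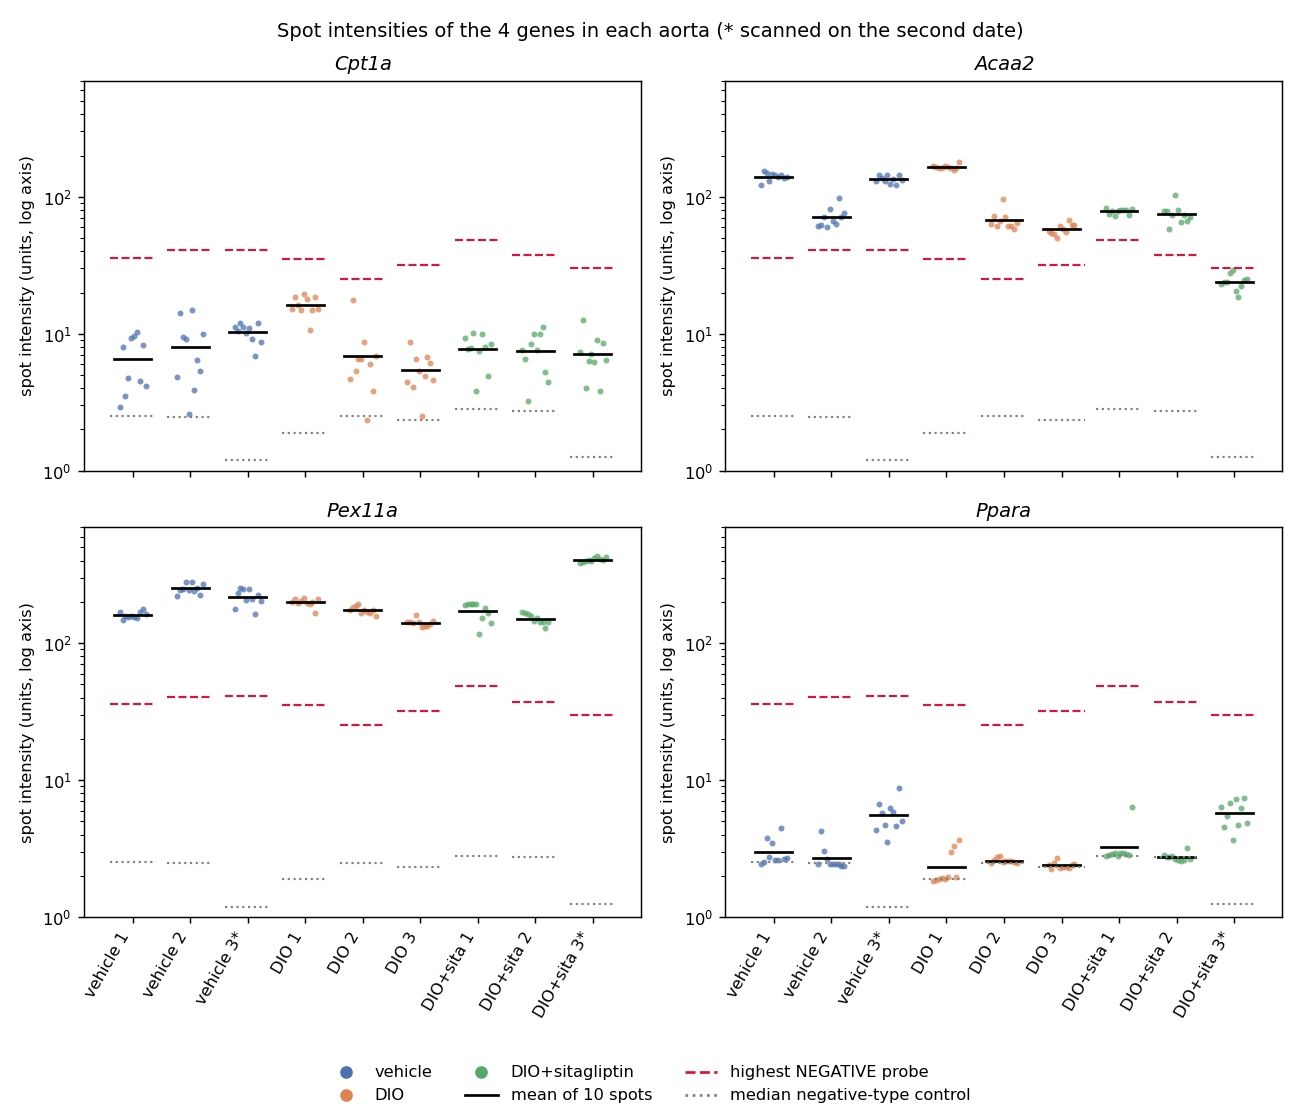
Spot intensity (log axis, arbitrary units) of Cpt1a, Acaa2, Pex11a and Ppara in each of the 9 aortas; coloured points are the 10 spots of the probe, black bars their mean, dashed red lines the brightest NEGATIVE probe and dotted grey lines the median negative-type control of that array. Pex11a lies above the red line in every aorta, Acaa2 in all but DIO+sitagliptin 3, and most Ppara spots lie near the grey line in the 7 arrays of the first scan date, with single spots above it (the highest at 6.33 on DIO+sitagliptin 1).

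Cpt1a, the mitochondrial gate, read 6.53, 8.06 and 10.3 units in the vehicle aortas. It read 16.1, 6.84 and 5.40 units in the DIO aortas and 7.76, 7.43 and 7.13 units with sitagliptin. DIO 1 was thus the brightest and the groups overlapped in full, the 3 treated aortas lying closest together. At least 5 of the 10 spots were well above background on 3 arrays, vehicle 3, DIO 1 and DIO+sitagliptin 3. The spots of 1 array varied by 15.8% to 61.4% of their mean, and on DIO 2 they ran from 2.35 to 17.7 units. Against the dark control the probe read 8.58-fold on vehicle 3, 8.51-fold on DIO 1, 5.70-fold on DIO+sitagliptin 3 and 2.32-fold to 3.26-fold on the other 6 arrays. On each array 9 or 10 of its 10 spots exceeded the 95th percentile of the dark control, so Cpt1a was dim but above the dark end throughout. It was farthest above that end on DIO 1 and both arrays of the second scan date. On every array of the first scan date, however, Cpt1a read below the median spot of the NEGATIVE probes (7.84 units on vehicle 1 to 26.7 on DIO+sitagliptin 1). That median was 1.22 units on vehicle 3 and 1.29 on DIO+sitagliptin 3, below Cpt1a.

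Acaa2, the mitochondrial thiolase, read 140.5, 71.1 and 134 units in the vehicle aortas. The DIO aortas gave 165, 67.6 and 58.2 units, and the treated aortas 78.4, 75.2 and 23.9 units. The readings split within groups: vehicle 1, vehicle 3 and DIO 1 were bright, at 134 units or more, while no other aorta exceeded 78.4 units. Group means were 115 ± 38.4 units in vehicle, 97.0 ± 59.2 in DIO and 59.2 ± 30.6 with sitagliptin (SD, n = 3 each). The readings of neighbours in this order overlapped. DIO+sitagliptin 3 was the dimmest, with a spot range of 18.6 to 29.4 units, none of them above the brightest NEGATIVE probe of 30.1 units. All 10 of its spots were nevertheless marked well above background. The spots of 1 array varied by 3.81% to 16.7%. Between animals of a group the normalized level had an SD of 0.63 on the log2 scale, 4.98 times the median SD between spots of 1 array. The median SD within groups over all probes tested was also 0.63.

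Pex11a, the peroxisomal membrane protein, read 161, 251 and 217 units in the vehicle aortas. It read 199, 175 and 141 units in the DIO aortas and 171, 151 and 408 units with sitagliptin. The highest of the 9 readings was DIO+sitagliptin 3, and the other 8 stayed between 141 and 251 units. Its 10 spots agreed closely on that array, from 387 to 433 units (CV 3.74%), so the high reading was shared by all spots of the probe. Group means were 243 ± 143 units with sitagliptin, 210 ± 45.5 in vehicle and 172 ± 29.3 in DIO (SD, n = 3 each), and the readings of neighbours again overlapped. After normalization the SD within groups was 0.38 on the log2 scale, at the 18.0th percentile of the probes tested. By rank of brightness Pex11a lay between the 83.6th and the 89.0th percentile of all probes on every array, where Acaa2 ranged from the 61.4th to the 83.7th.

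Ppara, the receptor, read 3.00, 2.69 and 5.54 units in the vehicle aortas. DIO aortas read 2.33, 2.59 and 2.38 units and treated aortas 3.22, 2.74 and 5.73 units. In these raw units every DIO aorta lay below every aorta of both other groups (two-sided exact permutation p = 0.1 each, the smallest that 3 against 3 allows). The share of all probes with such a separation in raw units was not computed. The Ppara readings are, however, those of the dark end of the scale. Relative to the median negative-type control of the same array Ppara stood at 1.20-fold and 1.09-fold on vehicle 1 and 2, at 1.02-fold to 1.23-fold in the DIO aortas and at 1.15-fold and 1.00-fold on DIO+sitagliptin 1 and 2. It stood above that level on vehicle 3, at 4.64-fold, and on DIO+sitagliptin 3, at 4.58-fold, which are the arrays of the second scan date, and 5 of 10 spots were marked well above background on each. On this relative scale DIO overlapped vehicle (exact permutation p = 0.3) and DIO+sitagliptin (exact permutation p = 0.7). At this signal a difference in Ppara between the groups was not detectable, and the data do not give its level in the aortas of the first date.

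DIO was compared with vehicle, whose label gives no diet, in 1 limma fit of all 9 arrays, on quantile-normalized log2(intensity + 1). For the dim genes this scale widened the spread: the SD within groups was 0.87 for Cpt1a against 0.50 before normalization, and 0.93 against 0.36 for Ppara. Acaa2 had a normalized level of 6.75 ± 0.78 in vehicle and 6.45 ± 0.48 in DIO, a difference of -0.30 ± 0.51 (SE; 95% interval -1.43 to 0.82; limma adjusted p = 0.925 over all probes). Cpt1a differed by -0.41 ± 0.66 (95% interval -1.87 to 1.06) and Pex11a by -0.16 ± 0.44 (95% interval -1.13 to 0.81; limma adjusted p = 0.925 and 0.943). None of the 3 genes passed, where 0% of the 49360 probes were called and 0.717% had an unadjusted p under 0.05 (354 probes). Nor did any of the 3 have groups that did not overlap, against 7.41% of all probes. All 3 estimates were below 0, as were 46.3% of all probes, whose median difference was 0.05. The log2 difference in Ppara, which was not tested in this fit, was -0.98, and -0.41 before normalization. With no detection filter Ppara was tested, and its 95% interval ran from -2.41 to 0.44 (limma unadjusted p = 0.156, adjusted p = 0.934). Among arrays of the first date Acaa2 differed by -0.07, Pex11a by -0.02, Cpt1a by 0.14 and Ppara by -0.40. The Cpt1a value was thus above 0 without vehicle 3, the only array this leaves out of the comparison, and those of Acaa2 and Pex11a lay nearer to 0.

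DIO+sitagliptin was next compared with DIO. These groups differ in the drug, but the label of the treated group does not give the length of its diet. Acaa2 had a normalized level of 5.83 ± 0.57 with the drug, a difference of -0.62 ± 0.51 from DIO (SE; 95% interval -1.75 to 0.51; limma adjusted p = 1.000). Pex11a stood on the other side, at 7.74 ± 0.55 against 7.47 ± 0.23, a difference of 0.27 ± 0.44 (95% interval -0.69 to 1.24), while Cpt1a differed by -0.03 ± 0.66 (95% interval -1.49 to 1.43; limma adjusted p = 1.000 for both). Among all probes 8.23% had a difference as low as that of Acaa2, and 78.7% had one no higher than that of Pex11a. Of the 3 genes, 0 passed and 0 had separate groups, and 2 had an estimate below 0, where 54.9% of all probes did. The share called was 0% of all probes, with 0.231% at an unadjusted p under 0.05 (114 probes) and 3.32% with groups that did not overlap. Ppara differed by 0.63, not tested in this fit. On the first scan date alone, 2 treated against 3 DIO aortas, Acaa2 differed by -0.29, Pex11a by -0.01, Cpt1a by -0.55 and Ppara by -0.06. This leaves out DIO+sitagliptin 3 alone. Without DIO 1, the brightest DIO aorta for Acaa2, the Acaa2 difference was -0.35.

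Treated mice were set against vehicle mice last, a comparison that shares its arrays with the other 2. Acaa2 showed the widest difference of the 3 genes here, -0.92 ± 0.51 on the log2 scale (SE; 95% interval -2.05 to 0.21; limma unadjusted p = 0.0987, adjusted p = 1.000). Only 3.19% of the probes tested had a difference as low. In deposited units and after normalization the treated readings overlapped vehicle, since vehicle 2 lay below DIO+sitagliptin 1 and 2 (exact permutation p = 0.3 on the normalized values). Taken relative to the dark control of each array they did not: Acaa2 stood at 56.1-fold, 28.8-fold and 112-fold in vehicle and at 27.9-fold, 27.4-fold and 19.1-fold with sitagliptin (exact permutation p = 0.1, the smallest possible). Vehicle 2 exceeded DIO+sitagliptin 1 there by a margin smaller than the spread between spots. The dark control was 2.47 units on vehicle 2, 2.81 on DIO+sitagliptin 1 and 2.75 on DIO+sitagliptin 2, all scanned on the first date. It also differed between scan dates, and the part of the dark control in these fold values was not tested. The share of all probes with separate groups on this scale was not computed, so how common such a separation is remains unknown. Cpt1a differed by -0.44 ± 0.66 (95% interval -1.90 to 1.03) and Pex11a by 0.11 ± 0.44 (95% interval -0.86 to 1.08). Of the 3 genes, 0 passed, 0 had separate groups after normalization and 2 had an estimate below 0 (49.6% of all probes did), where 0% of the probes were called, 1.44% had an unadjusted p under 0.05 (713 probes) and 4.04% had groups that did not overlap. The difference in Ppara, not tested in this fit, was -0.35. Among arrays of the first date, 2 against 2, Acaa2 differed by -0.35, Cpt1a by -0.40, Pex11a by -0.03 and Ppara by -0.45. Acaa2 was -0.59 without DIO+sitagliptin 3 and -1.37 without vehicle 2.

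**Figure D2:**
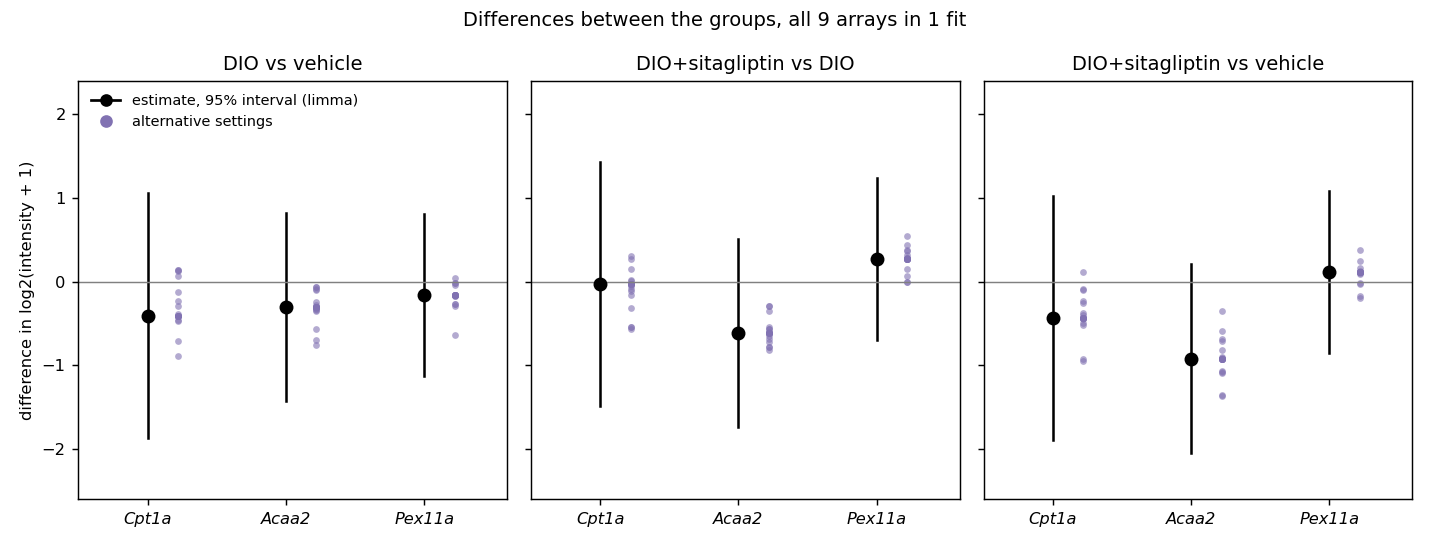
Differences in normalized log2(intensity + 1) for Cpt1a, Acaa2 and Pex11a in the 3 comparisons; black points are the limma estimates, bars their 95% intervals and violet points the values under alternative settings. Every interval includes 0, and the Acaa2 estimates run from -0.30 to -0.92 and stay below 0 under each alternative shown. Some of these alternatives leave the estimate unchanged by design.

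Because both bright probes sit on every array, their ratio was read from intensities not scaled between arrays. Its size still depends on that choice. On DIO+sitagliptin 3 the unscaled log2 ratio was 4.09, while the normalized log2 levels lay closer together, at 8.30 for Pex11a and 5.17 for Acaa2. Pex11a was brighter than Acaa2 on all 9 arrays. The ratio of their intensities was 1.15, 3.53 and 1.61 in the vehicle aortas, 1.21, 2.59 and 2.42 in the DIO aortas, and 2.19, 2.01 and 17.1 with sitagliptin. DIO+sitagliptin 3 had the highest Pex11a and the lowest Acaa2 reading of the series. Its Acaa2 reading lay below the brightest NEGATIVE probe, so the size of its ratio is uncertain, and ratios of different probes do not compare transcript numbers. Vehicle 3, scanned on the same date, had a ratio of 1.61, within the range of the first date. On the log2 scale the mean ratio was 0.90 ± 0.83 in vehicle, 0.97 ± 0.61 in DIO and 2.08 ± 1.75 with the drug (SD, n = 3 each). As a description, since the ratio was chosen after its values were seen, it differed by 0.07 between DIO and vehicle, by 1.103 between DIO+sitagliptin and DIO and by 1.17 between DIO+sitagliptin and vehicle. Without both arrays of the second date the latter 2 differences were 0.09 and 0.06.

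**Figure D3:**
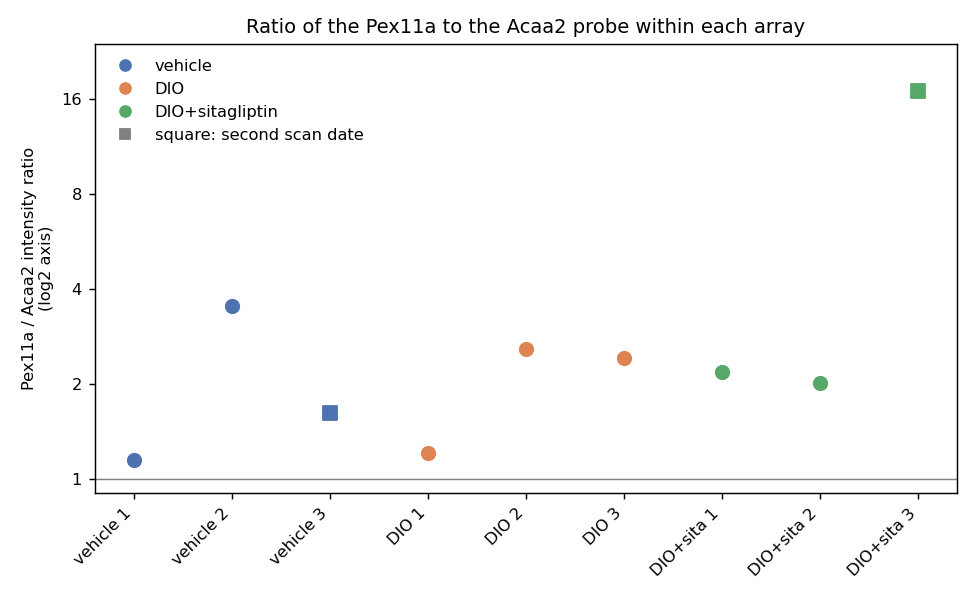
Ratio of Pex11a to Acaa2 intensity within each array (log2 axis), coloured by group, with squares for the arrays of the second scan date. DIO+sitagliptin 3 lies at 17.1, and the other 8 aortas, vehicle 3 of the same scan date among them, lie between 1.15 and 3.53.

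The probes for mouse GAPDH among the control features, named with the endings 3 and 5, gave log2 ratios that also differed within groups. In replicate order the vehicle aortas gave -1.49, -0.02 and -2.48, the DIO aortas -1.62, 0.43 and 0.15, and the treated aortas -1.20, 0.50 and -1.75. The 3 aortas with Acaa2 at 134 units or more had ratios of -1.49, -2.48 and -1.62, and the 4 with ratios of -0.02 or more had Acaa2 between 58.2 and 75.2 units. DIO+sitagliptin 3, at -1.75, had the dimmest Acaa2, and DIO+sitagliptin 1, at -1.20, read 78.4 units. The part of this ratio in the Acaa2 values was not tested. Pex11a read 141 to 251 units on the 4 arrays with ratios of -0.02 or more and 161 to 408 units on the other 5.

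Likeness of pattern was measured as Pearson's r of normalized log2 intensity over the 7 arrays of the first date, against the 39 other named genes that passed detection, and is a description of arrays that share a slide design and scan date. Closest to Acaa2 were Taf1a, a subunit of the RNA polymerase I selectivity factor (r = 0.92, Spearman's rho = 0.75), the class Ib histocompatibility gene H2-Q7 (r = 0.90, rho = 0.75) and Cpt1a (r = 0.90, rho = 0.82). These values rest on vehicle 1 and DIO 1, the arrays farthest from the Acaa2 median. Without this pair r was 0.31 with Taf1a, 0.42 with H2-Q7 and 0.65 with Cpt1a over 5 arrays. Cpt1a was nearest to Taf1a (r = 0.90, rho = 0.79), the glycolytic isomerase Gpi1 (r = 0.90, rho = 0.93) and Acaa2, and without the same pair r was 0.71 with Taf1a and 0.89 with Gpi1. Taf1a read 15.3 to 25.3 units (geometric means of its spots) on these arrays, below the brightest NEGATIVE probe of each. Cpt1a read below even the median NEGATIVE spot of each, which limits what its correlations can show. Nearest to Pex11a were netrin G1, Ntng1 (r = 0.70, rho = 0.57), the cell-cycle factor E2f1 (r = 0.69, rho = 0.54) and the centrosomal Cep41 (r = 0.50, rho = 0.50). All of them read at most 25.4 units there. Ntng1 and Cep41 read below the median NEGATIVE spot of each of these arrays, and E2f1 below the brightest NEGATIVE probe of each, which limits what these correlations can show. Without DIO+sitagliptin 2 and DIO 1, the arrays farthest from the Pex11a median, these became 0.88, -0.13 and 0.58. With the mitochondrial genes Pex11a had r = -0.51 for Acaa2 and -0.54 for Cpt1a, ranks 36 and 37 of the 39. Without the same pair of arrays these were -0.65 and -0.55, without vehicle 1 and DIO 1 they were 0.03 and -0.02, and over all 9 arrays they were -0.48 and 0.46. Acaa2 and Cpt1a had r = 0.34 with each other over all 9.

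The rest of the pathway could be read only in small part, since few probes carry a gene name here. Of 90 distinct genes in 5 lists the 4 members were the ones named among those probes, and other probes were not searched. The mitochondrial oxidation list had 2 of 26 genes, Cpt1a and Acaa2, and neither passed in any comparison. The peroxisome biogenesis list had 1 of 23, Pex11a, which did not pass, and the peroxisomal oxidation list 0 of 15. The list of PPARs and partners had 1 of 13, Ppara, which did not reach the detection limit. Of the 21 PPAR alpha targets listed, 3 were tested, again Cpt1a, Acaa2 and Pex11a, with median differences of -0.30 in DIO against vehicle, -0.03 in DIO+sitagliptin against DIO and -0.44 in DIO+sitagliptin against vehicle. The medians over all probes were 0.05, -0.05 and 0.0041. With 3 genes each target median is the value of a single gene, Acaa2 in DIO against vehicle and the dim Cpt1a in the other comparisons. It therefore adds nothing to the values of the members given above. Of 45 markers of smooth muscle, endothelium, fat, fibroblasts, macrophages, heart and blood, Apoe alone was named among the probes searched. The cell makeup of the aortas, perivascular fat included, was therefore not analysed here. Apoe, the apolipoprotein of remnant lipoproteins listed with the macrophage markers, read 1109, 348 and 1183 units in vehicle (geometric means of its spots). It read 855, 407 and 206 units in DIO and 346, 190.3 and 245 units with sitagliptin, and like Acaa2 it was brightest on vehicle 1, vehicle 3 and DIO 1. Its part in the Acaa2 values was not tested.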

How the data were processed

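Each deposited file holds the intensity of every spot of 1 Cy3 array. Per the file headers the authors ran Feature Extraction 11.0.1.1 from Agilent, which subtracted background and removed spatial trends. The flag for spots well above background (0 or 1) is the authors' deposited mark as well. No normalization between arrays is recorded there. Each file lists 61537 spots outside the control features, and the number of arrays limits the precision. Here log2(intensity + 1) was averaged over spots of a probe, all 9 arrays were quantile normalized, and limma 3.58.1 (R 4.3.3) compared the groups with an intensity trend, no covariate and Benjamini-Hochberg adjustment over all probes kept. A call was an adjusted p under 0.05. The procedure was tested on simulated data. Exact permutation tests, ratios and plots used Python 3.11.15. Symbols came from RefSeq for GRCm38.p6 (46 probes) and GENCODE (3). The headers name mm9, so no coordinates are given. The series is typed as sequencing, yet its files hold array intensities.

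Members and lists were chosen with earlier results of these data known. The members were named whatever their values, and the 3 most alike named genes were added for each member kept. After the data had been seen, the ratio of Pex11a to Acaa2 was added, with its values without the second date. The labels share replicate numbers between groups. As a pairing check, each array's deviation from its group was correlated with that of its numbered partner. Vehicle and DIO+sitagliptin gave 0.67, 0.65 and 0.76, all above the limit of 0.1, and both arrays of the last pair share the second scan date. In the other comparisons at least 1 pair was negative. The series' design text gives 3 mice per group.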

Additional observations from a re-analysis of the deposited data

How the results depend on the processing

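The count of called probes was 0 in each comparison under all 21 alternatives, and at an unadjusted p under 0.05 it ran from 46 to 2350 for DIO against vehicle, 16 to 1132 for DIO+sitagliptin against DIO and 291 to 5203 for DIO+sitagliptin against vehicle. The Acaa2 difference stayed below 0 under these alternatives, at -0.76 to -0.07, -0.82 to -0.29 and -1.37 to -0.35 in these comparisons. Alternatives such as another filter, no intensity trend or a third-group array left out could not change the estimate. Other scales differed in sign for DIO minus vehicle on the first date alone. Acaa2 gave 3.94 in fold of the dark control and 0.09 in percentile among probes, against -8.81 in raw units and -0.20 in unnormalized log2. With replicate number as a block the Acaa2 difference was -0.30, -0.62 and -0.92 (limma adjusted p = 0.855, 1.000 and 1.000). The block could not move these estimates, since each group holds every replicate number, and it changed no call.

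Cpt1a and Pex11a changed sign under some settings, none of which made a call, and the cause was not tested. For DIO against vehicle Cpt1a was 0.072 without normalization between arrays, 0.13 with scan date as a term and 0.14 without the arrays of the second date, and leaving out single arrays gave -0.89 to 0.14; Pex11a was 0.048 with scan date as a term, -0.63 with median scaling and -0.29 without vehicle 1, against -0.16 as reported. For DIO+sitagliptin against DIO Cpt1a was 0.0045 with a pseudocount of 10, 0.015 with the median over spots and -0.55 to 0.30 with single arrays left out, namely 0.28 without DIO 1, 0.30 without DIO+sitagliptin 1 and 0.15 without DIO+sitagliptin 2. Pex11a was -0.0061 without the second date, 0.44 with median scaling and -0.0061 to 0.54 without single arrays. For DIO+sitagliptin against vehicle Cpt1a ran from -0.95 to 0.11, positive without vehicle 3, and Pex11a was -0.20 with median scaling, -0.028 without the second date, -0.02 without vehicle 1 and -0.17 to 0.38 over single arrays. The log2 ratio of Pex11a to Acaa2 differed by -0.036 between DIO and vehicle without the second date. A filter of well above background on all 9 arrays removed Cpt1a and Ppara, which then have no value. The median difference over all probes, 0.05, -0.05 and 0.0041 in the 3 comparisons, was -0.10, -0.0031 and -0.09 with median scaling and 0.26, -0.08 and 0.19 without normalization. With no detection filter Ppara entered the test and was called in no comparison. The Ppara difference for DIO+sitagliptin against vehicle, reported as -0.35 without a test, was 0.05 without normalization, 0.23 without vehicle 3, 0.0044 without DIO+sitagliptin 2 and -1.04 without DIO+sitagliptin 3. Over single arrays left out, the Ppara difference ran from -1.48 to -0.40 for DIO against vehicle and from -0.06 to 0.99 for DIO+sitagliptin against DIO. Dim signal limits Cpt1a and Ppara, and 3 arrays a group limit all 4 genes.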
